A study of Mus musculus with 21 samples.

Results

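The comparison described here asked how the response of mouse macrophages to lipopolysaccharide (LPS) differed in cells that had first been given dimethyl malonate (DMM), 4 h after the LPS was added. It used 8 of the 21 RNA-sequencing libraries of the series, chosen by their treatment labels and not by any measured value. The 8 libraries were 2 of untreated cells (control), 2 of cells given DMM for 3 h without LPS (DMM), 2 of cells given LPS for 4 h (LPS) and 2 of cells given DMM for 3 h followed by LPS for 4 h (DMM + LPS). In all 4 groups the cells were bone-marrow-derived macrophages of C57bl/6 mice aged 12 weeks, differentiated for 6 days in L929 medium, which supplies the macrophage growth factor M-CSF. Doses, sex and the number of animals are not given in the labels, which call the replicates A and B without saying whether they came from separate cultures. The p-values therefore measure only the spread between libraries of the same group, pooled over the 20 libraries of the fit, and that spread may be technical.

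LPS, a component of the outer membrane of Gram-negative bacteria, is sensed by Toll-like receptor 4 and drives NF-kB, AP-1 and interferon-regulatory factors, which turn on cytokines, chemokines and antimicrobial genes. Activated macrophages also rewire the tricarboxylic acid (TCA) cycle: Irg1 diverts cis-aconitate into itaconate, and succinate accumulates. Succinate dehydrogenase oxidises succinate and feeds electrons into the respiratory chain, and DMM enters cells as an ester and releases malonate, which competes with succinate for that enzyme. The quantity tested was the interaction: the LPS effect after DMM minus the LPS effect without DMM, on the log2 scale, which is the same number as the DMM effect under LPS minus the DMM effect without it. A negative interaction means that the gene ended lower in DMM + LPS cells than the separate effects of DMM and of LPS would add up to, and a positive one that it ended higher.

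The 8 libraries held 662186 (DMM replicate A) to 1546867 (DMM + LPS replicate A) counts. Levels are given as CPM, the counts of a gene scaled to a common library size with trimmed-mean (TMM) factors, always replicate A before replicate B, and compare samples, not genes. Differences are log2 fold changes ± standard error from an edgeR quasi-likelihood fit over 20 libraries, and a gene was called at a Benjamini-Hochberg adjusted p below 0.05 over the 6812 genes tested. The library labelled LPS 48 h replicate 1 goes against its label, with 1 count of Il1b and 15 of Irg1 against 5163 and 10593 in replicate 2, and was left out of the fit. All 25 macrophage identity genes present in the table were detected. Nos2, the inducible nitric oxide synthase, had 0 counts in all 4 unstimulated libraries and 131 to 776 in the 4 stimulated ones. The DMM libraries were the least alike pair: the chi-square per degree of freedom between the counts of replicates was 17.3 for DMM, 6.9 for control, 5.02 for DMM + LPS and 4.08 for LPS, and DMM replicate B was nearer to control replicate B (6.07) than to its own replicate. No pair of libraries was identical.

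The interaction at 4 h was negative for many more called genes than it was positive. The interaction was called for 447 of 6812 genes (6.56%), of which 361 were lower (5.3%) and 86 higher (1.26%). At an unadjusted p under 0.05 there were 1462 genes. LPS alone changed 1869 genes (27.4%), raising 1030 (15.1%) and lowering 839 (12.3%), and LPS after DMM changed 2195 (32.2%), raising 962 (14.1%) and lowering 1233 (18.1%). DMM without LPS changed 71 genes (1.04%), of which 52 rose (0.763%) and 19 fell (0.279%), whereas DMM under LPS changed 1230 (18.1%), of which 898 fell (13.2%) and 332 rose (4.87%). The count for DMM without LPS was 5 without control replicate A, 25 without control replicate B, 13 without DMM replicate A and 0 with all 21 libraries (edgeR, with 421 at an unadjusted p under 0.05). That for DMM under LPS was 491 without DMM + LPS replicate A, 717 without LPS replicate A, 726 without LPS replicate B and 464 with all 21 libraries. The median interaction over all genes tested was -0.05. In these bulk samples, fewer cells expressing a gene and less of its RNA per cell cannot be told apart.

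**Figure D1:**
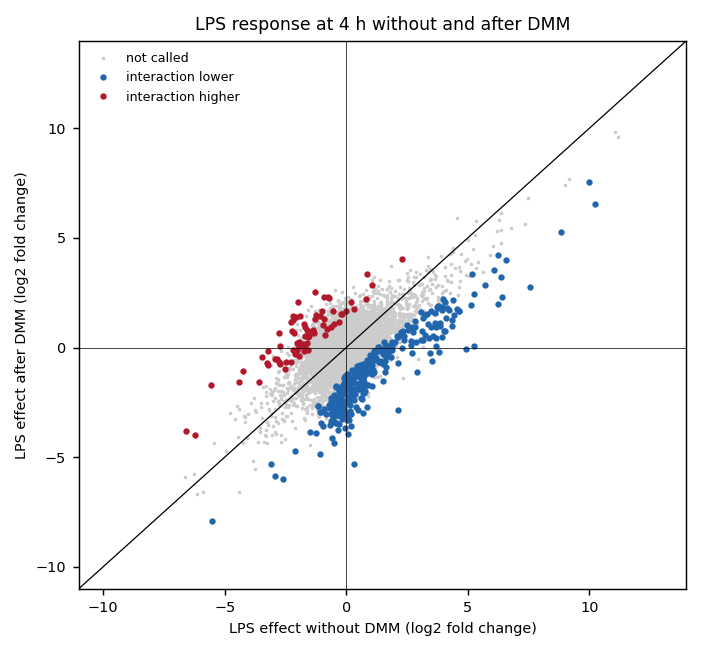
LPS effect at 4 h in cells without DMM (x axis, log2 fold change of LPS over control) and after DMM (y axis, log2 fold change of DMM + LPS over DMM), 1 point per gene with more than 3 counts in each of the 4 groups. A point below the diagonal has a lower log2 LPS effect after DMM than without it, which can be a smaller rise or a larger fall. Genes with a called lower interaction (blue) lie below it and genes with a called higher one (red) above it, and many blue genes sit near 0 on the x axis and below 0 on the y axis.

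The 361 genes with a lower interaction did not form 1 pattern. The largest class, 186 genes, was not called in the LPS effect without DMM and fell in response to LPS after DMM. A further 94 rose with LPS alone and were not called after DMM, 50 rose in both but less after DMM, 13 rose with LPS alone and fell after DMM, 16 fell in both and 2 were called in neither. In terms of DMM, 315 of the 361 were not called for DMM without LPS and fell with DMM under LPS, 22 rose with DMM alone only, 5 rose with DMM alone and fell with DMM under LPS, and 19 were called in neither. Among the 86 higher genes, 44 fell with LPS alone and were not called after DMM, 20 were not called with LPS alone and rose after DMM, 9 fell in both, 5 fell with LPS alone and rose after DMM, 4 rose in both and 4 were called in neither. For 57 of the 86, DMM without LPS was not called and DMM under LPS raised the gene.

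The count varied with the libraries and the scaling used. With all 21 libraries, including the one that goes against its label, 78 genes were called (13 higher, 65 lower). Leaving out 1 library gave 175 calls without DMM + LPS replicate A, 255 without LPS replicate B, 279 without LPS replicate A, 269 without control replicate B, 287 without control replicate A, 320 without DMM replicate B, 381 without DMM replicate A and 359 without DMM + LPS replicate B. Scaling to total counts instead of TMM moved the median interaction of all genes from -0.05 to 0.47 and the split to 208 higher and 249 lower (45.5% higher, against 19.2% with TMM). Directions are given relative to the middle of all genes. Of 99 called genes named here (Hsph1, Rrm2 and Atp6v0d2, also called and given by counts, are not among them), 69 were not called with all 21 libraries. Which unstimulated libraries belong to the 4 h set was read from the names of the columns. With the unstimulated groups of the 4 h and 48 h sets merged, 370 genes were called, 315 of them among the 447. Of the 99 named genes, 29 then lost the call (adjusted p = 0.051 to 0.36): Tmem176b, Tmem176a, Pf4, F13a1, Ptges, Tlr2, Irak1, Ms4a7, Blvrb, Txn1, Sod1, Srebf2, Scd2, Sec61b, Mthfd2, Ndufb7, Emr1, Maf and Aif1 among the lower ones, and Ndrg2, Il7r, Zfp62, Pdpr, Atf3, Junb, Zfand2a, Slc6a12, Slc5a3 and Spp1 among the higher ones.

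Among the 12 lowest interactions were genes that LPS induced in control cells and that LPS after DMM raised less, did not detectably change or lowered. Ch25h, cholesterol 25-hydroxylase, which makes the antiviral oxysterol 25-hydroxycholesterol, measured 3.06 and 3.52 CPM in control, 15.8 and 11.7 in DMM, 138 and 123 in LPS and 15.2 and 12.1 in DMM + LPS. Both LPS libraries stood far above the other 6, and the DMM and DMM + LPS libraries overlapped. The interaction was -5.21 ± 0.67 (adjusted p = 3.1e-06), with LPS effects of 5.26 without DMM and 0.05 after it. Slc7a2, a carrier of cationic amino acids including arginine, measured 2.04 and 2.35 CPM in control, 12.7 and 3.9 in DMM, 458 and 414 in LPS and 51.7 and 50.1 in DMM + LPS. LPS raised it in both settings, by 7.57 ± 0.43 without DMM and 2.76 ± 0.40 after DMM, and the interaction was -4.81 ± 0.74 (adjusted p = 4.7e-05).

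Receptors and signalling adaptors of myeloid cells were among these genes. Fcgr2b, the inhibitory Fc receptor for IgG, stood at 30.6 and 29.3 CPM in control, 77.6 and 109 in DMM, 382 and 475 in LPS and 82.1 and 81.7 in DMM + LPS. Each agent alone raised it (1.65 ± 0.33 for DMM, 3.83 ± 0.33 for LPS), and LPS after DMM was not called (-0.20 ± 0.30, adjusted p = 0.64). Its interaction was -4.04 ± 0.44 (adjusted p = 3.4e-07). Tmem176b, a membrane protein of myeloid cells, behaved likewise for the single agents and then fell: 6.12 and 9.38 CPM in control, 26.9 and 48.8 in DMM, 29.9 and 38.7 in LPS and 5.06 and 5.57 in DMM + LPS, so that the double treatment was below the control pair. Its interaction was -5.01 ± 0.57 (adjusted p = 3.4e-07), but it was -4.73 and not called (adjusted p = 0.27) when unstimulated libraries of the 4 h and 48 h sets were merged. Lcp2, the adaptor SLP-76, measured 3.06 and 7.04 CPM in control, 9.5 and 25.4 in DMM, 392 and 456 in LPS and 83.2 and 102 in DMM + LPS, with an interaction of -4.09 ± 0.61 (adjusted p = 4.2e-05). Here both double-treated libraries were between the DMM and the LPS pair.

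The chemokine Ccl6 was not called for LPS alone and fell strongly in the double treatment: 90.8 and 76.2 CPM in control, 109 and 161 in DMM, 115 and 155 in LPS and 14.1 and 21.4 in DMM + LPS, an interaction of -3.67 ± 0.42 (adjusted p = 3.4e-07). The remaining members of the 12 lowest were Marcksl1, a substrate of protein kinase C that binds actin (-4.27 ± 0.82), Rnaset2b, a lysosomal ribonuclease (-4.13 ± 0.92), S100a11, a calcium-binding protein (-4.00 ± 0.81), Serpinb2, plasminogen activator inhibitor 2 (-3.67 ± 1.05), and the translation genes Eef1a1 and Rpl3 described with the ribosomal proteins. Serpinb2 rose from 5.1 and 1.17 CPM in control to 3816 and 4265 in LPS and from 3.17 and 3.9 in DMM to 270.3 and 431 in DMM + LPS, so it remained strongly induced after DMM. Calls of Ch25h, Slc7a2, Fcgr2b, Tmem176b, Lcp2, Ccl6, Marcksl1, S100a11, Eef1a1 and Rpl3 held without each of the 8 libraries in turn. Rnaset2b was not called without DMM replicate B (adjusted p = 0.17), and Serpinb2 was not called without control replicate B, either DMM library, LPS replicate B or DMM + LPS replicate A (adjusted p = 0.056 to 0.24).

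Of the 447 called genes, 23 had 3 or fewer counts in at least 1 of the 4 groups, and a fitted fold means little for them. The 6 with the smallest p and at least 10 CPM in a group are given as counts. Slc13a3, a sodium-coupled carrier of succinate and related dicarboxylates, had 0 and 0 counts in control, 1 and 3 in DMM, 68 and 72 in LPS and 3 and 3 in DMM + LPS. LPS raised it at least 45.8-fold in control cells and it was not called for LPS after DMM (adjusted p = 0.9). The double-treated pair held 6 counts together, against 140 with LPS alone (adjusted p of the interaction = 0.00093, and 0.076 without DMM replicate B). F13a1, coagulation factor XIII A, a gene of monocytes and macrophages, had 0 and 0 counts in control, 9 and 12 in DMM, 32 and 37 in LPS and 109 and 61 in DMM + LPS. Here the double treatment was the highest group. DMM alone raised F13a1 at least 7.74-fold and LPS alone at least 22.6-fold, and the interaction was called lower (adjusted p = 0.0052, 0.058 without control replicate A and 0.072 with unstimulated groups merged). Tmem176a, a relative of Tmem176b, had 0 counts in control, 4 and 10 in DMM, 11 and 19 in LPS and 7 and 5 in DMM + LPS. LPS raised it at least 9.81-fold without DMM (adjusted p of the interaction = 0.00016, and 0.27 with unstimulated groups merged). The other 3 were the chemerin receptor Cmklr1 and the chemokine Pf4, both with 0 counts in control and fewer in DMM + LPS (12 and 14 over the 2 libraries) than in LPS (44 and 21; Pf4 was not called with unstimulated groups merged, adjusted p = 0.26), and Wdr38, which fell to 2 counts in DMM + LPS from 22 in LPS, a ratio of 16.8-fold (95% counting interval 4.14 to 148). Wdr38 was not called without DMM replicate B (adjusted p = 0.11) or DMM + LPS replicate A (adjusted p = 0.061). For Cmklr1, Pf4 and Wdr38 the counts in DMM are not given here, so the interaction cannot be read from the counts above. Floors of 3 counts over a group and counting intervals cover counting error only.

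**Figure D2:**
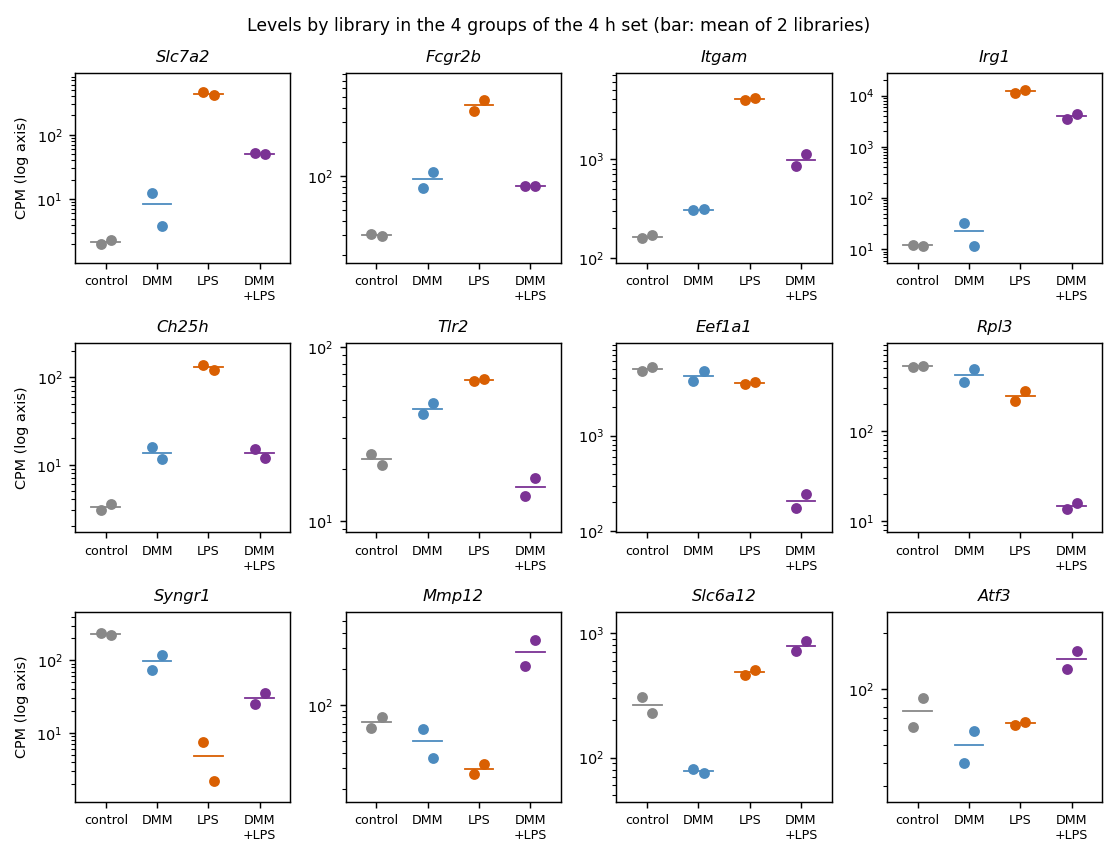
Level of 12 genes in the 8 libraries (y axis, CPM on a log scale; x axis, the 4 groups; 1 point per library, bar at the mean of 2). In the top 2 rows the DMM + LPS pair lies below the LPS pair for all 8 genes, and in the bottom row it lies above the LPS pair for all 4.

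The 12 highest interactions mostly belonged to genes that LPS lowered in control cells and did not lower, or raised, after DMM. Mmp12, macrophage metalloelastase, measured 64.3 and 79.8 CPM in control, 63.4 and 36.1 in DMM, 26.7 and 32.3 in LPS and 210.2 and 348 in DMM + LPS. LPS lowered it without DMM (-1.28 ± 0.37) and raised it after DMM (2.52 ± 0.35), and the double-treated pair was above the other 6 libraries. The interaction was 3.80 ± 0.50 (adjusted p = 6.2e-06). Syngr1, a synaptogyrin of vesicle membranes, had 241 and 225 CPM in control, 74.4 and 120.0 in DMM, 7.46 and 2.15 in LPS and 25.3 and 35.3 in DMM + LPS. Its fall with LPS was -5.56 ± 0.39 without DMM and -1.73 ± 0.30 after it, an interaction of 3.84 ± 0.52 (adjusted p = 9.3e-06). Ahnak2, a scaffold protein, went from 26.5 and 36.4 CPM in control to 5.33 and 7.53 in LPS, and from 11.1 and 17.6 in DMM to 33.7 and 32.5 in DMM + LPS (3.41 ± 0.55, adjusted p = 7.9e-05). These 3 genes kept their calls without each library in turn.

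The other 9 had at most 44.9 CPM in any library, the highest level being that of Ndrg2. They were Pdpr, the regulatory subunit of pyruvate dehydrogenase phosphatase (4.05 ± 0.97), the zinc-finger gene Zfp62 (3.65 ± 1.07), Il7r, the interleukin-7 receptor alpha chain (3.48 ± 0.96), Tmem180 (3.44 ± 0.86), Crem, a cAMP-responsive transcription factor (3.43 ± 0.87), Timm22, a mitochondrial inner-membrane translocase (3.36 ± 1.06), Slc35e4 (3.20 ± 0.68), Rell1 (3.15 ± 0.69) and Ndrg2 (3.06 ± 0.77). Of these, Slc35e4 and Rell1 were called without each library in turn. Timm22, Il7r, Zfp62, Crem, Tmem180 and Ndrg2 all lost the call without DMM + LPS replicate A (adjusted p = 0.079 for Crem to 0.39 for Timm22) and at least 1 other library. Pdpr lost it without DMM replicate B (adjusted p = 0.05007). Chosen after their values were seen, 2 abundant genes had the same direction. Galnt6, an enzyme that starts mucin-type O-glycans, measured 61.2 and 42.2 CPM in control, 26.9 and 22.4 in DMM, 26.7 and 35.5 in LPS and 114 and 124 in DMM + LPS (3.03 ± 0.41, adjusted p = 9.3e-06). Spp1, osteopontin, the most abundant of them, measured 80831 and 85767 CPM in control, 67480.0 and 61122 in DMM, 28430.0 and 35709 in LPS and 92579 and 122350.0 in DMM + LPS. Its interaction was 2.12 ± 0.63 (adjusted p = 0.032), and it was not called without any 1 of the 8 libraries (adjusted p = 0.054 to 0.16).

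Of the 29 functional gene lists examined, that of cytosolic ribosomal proteins held the most genes with a lower interaction. They are known for 5′-terminal oligopyrimidine transcripts, which begin with a C followed by a run of pyrimidines and whose translation is regulated as 1 set by mTOR signalling. The 50 bases around the annotated start (RefSeq, build GRCm38.p6, transcribed strand) are printed for 3 ribosomal protein genes and for Eef1a1. They hold 30 bases before the start and 20 from it on. The nearest pyrimidine run is in capitals from its first C within 5 bases of the start. In Rpl38 and Rplp2 the base just before the capitals is also a pyrimidine, so the whole run begins earlier. Only in Rpl38 do the capitals begin at the annotated start, position 1. They begin at position 4 in Rps23, -4 in Rplp2 and -5 in Eef1a1. Whether transcripts begin with these runs was not tested. Rpl38 lies at chr11:114668550-114668599 (+), Rplp2 at chr7:141447621-141447670 (+), Rps23 at chr13:90923092-90923141 (+) and Eef1a1 at chr9:78481705-78481754 (-).
Rpl38: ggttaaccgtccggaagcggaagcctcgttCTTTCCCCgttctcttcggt
Rplp2: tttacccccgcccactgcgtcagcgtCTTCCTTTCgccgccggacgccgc
Rps23: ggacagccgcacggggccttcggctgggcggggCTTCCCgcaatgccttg
Eef1a1: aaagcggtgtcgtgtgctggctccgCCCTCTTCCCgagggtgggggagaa

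Of the 59 ribosomal protein genes tested, 44 had a lower interaction and none a higher one, against 5.3% and 1.26% of all genes, at a median of -2.12. The list's median was -0.17 for DMM alone, where none of the 59 was called, and -0.27 for LPS alone. For DMM under LPS it was -2.27, and 54 were lower and none higher, against 13.2% and 4.87% of all genes. Rpl3, of the large subunit, measured 517 and 535 CPM in control, 350.1 and 497 in DMM, 214 and 281 in LPS and 13.5 and 15.8 in DMM + LPS. The double-treated pair was far below the other 6 libraries, at an interaction of -3.77 ± 0.48 (adjusted p = 3.1e-06). Rps23, of the small subunit, measured 194 and 139.6 CPM in control, 143 and 168 in DMM, 139.7 and 127 in LPS and 9.55 and 13.9 in DMM + LPS (-3.43 ± 0.50, adjusted p = 3.7e-05). Rps7 (-3.05 ± 0.51), Rps18 (-2.95 ± 0.46), Rpl38 (-3.08 ± 0.59) and Rplp2 (-2.48 ± 0.45) each had the DMM + LPS pair below all 6 other libraries. All 6 genes were called without each of the 8 libraries in turn.

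As a share of all counts of a library, ribosomal protein genes made up 2.6 to 3.28% in control, 1.93 to 2.96% in DMM, 1.59 to 1.68% in LPS and 0.548 to 0.595% in DMM + LPS. The 50 most abundant genes of each library took up 65.5 to 69.2% of the counts in DMM + LPS and 57.4 to 59.1% in LPS. With total counts in place of TMM factors, 42 of the 59 were called lower; the part of that share in the result was not tested. The number of the list called lower was 17 with all 21 libraries, 17 without DMM + LPS replicate A, 27 without DMM replicate B and 29 without control replicate B, with medians from -2.40 to -1.87 over the 8 fits that left out 1 library. Many of these genes have processed copies in the mouse genome with near-identical sequence, so the split of reads between gene and copy is uncertain. Counting copies as well, 64 of 100 tested ribosomal protein genes and copies were lower and none higher.

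The start-site pyrimidine run (C, then at least 4 bases that are C or T, starting within 5 bases of the annotated start, on the transcribed strand) was found in 17 of 39 promoters of the called ribosomal protein genes (43.6%, for the 33 of 44 genes with an entry). It was found in 3 of 13 promoters of the ribosomal protein genes not called (23.1%), in 22% of those of other genes with a lower interaction, in 19.2% of those with a higher one, in 20% over all genes tested and in 18.3% of all promoters of the table. In the windows of 250 bases before to 50 after the start, the cAMP response element TGACGTCA was in 4 of the 39 promoters of the called ribosomal protein genes (10.3%) and in 2.95% of all tested. For the interferon-type element (GAAA, any 2 bases, GAAA) these values were 5 (12.8%) and 3.65%, and for the E box CACGTG 7 (17.9%) and 10.7%. The AP-1 motif TGANTCA was in 11 of 104 promoters of higher genes (10.6%), in none of the 39 and in 5.29% of all tested. Both strands were counted. These are matches of letters and not sites. By gene length, 7.34, 6.03, 4.36 and 3.17% of genes were called lower from the shortest to the longest quartile, and 4.57, 5.27, 4.36 and 3.17% with ribosomal protein genes and copies left out.

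**Figure D3:**
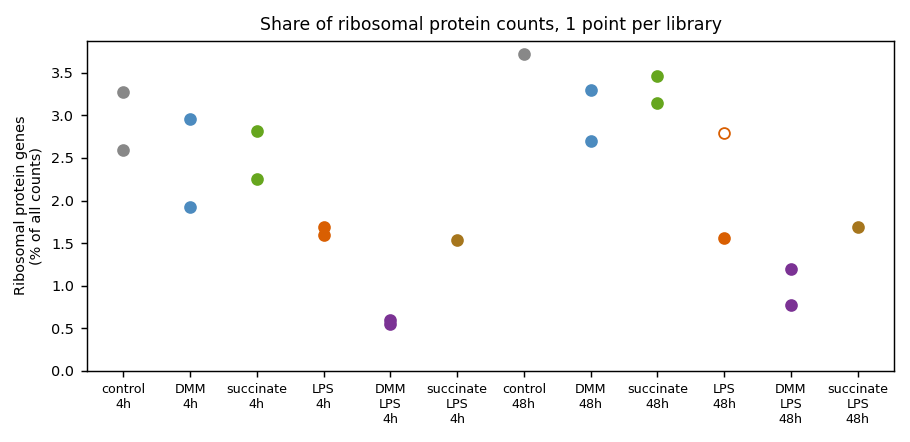
Ribosomal protein genes as percent of all counts in each of the 21 libraries (y axis), by group (x axis), 1 point per library. The 2 DMM + LPS libraries at 4 h lie at 0.548 and 0.595%, below every other library, and the hollow point is the library labelled LPS 48 h replicate 1, which was left out of the fit.

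Other abundant genes of translation and of the cytoskeleton, grouped by symbol after their values were seen, also had lower interactions. Eef1a1, which carries aminoacyl-tRNA to the ribosome, measured 4733 and 5298 CPM in control, 3741 and 4745 in DMM, 3520.3 and 3632 in LPS and 173 and 244 in DMM + LPS (-3.86 ± 0.59, adjusted p = 4.7e-05). Of the 6 cytosolic elongation factor genes tested, 2 were lower and none higher, while of 44 initiation factor genes 2 were lower and 1 higher, at a median of -0.22. Of 8 tubulin genes, 5 were lower and none higher. Over all genes 5.3% were lower and 1.26% higher, a share that the initiation factors are near. Tubb5, a beta-tubulin, measured 1186 and 1003 CPM in control, 1682 and 1709 in DMM, 1237 and 1245 in LPS and 189.9 and 218 in DMM + LPS (-3.24 ± 0.51, adjusted p = 6.8e-05), and Tuba1b, an alpha-tubulin, had an interaction of -2.92 ± 0.45. For Tubb5 the DMM + LPS pair was the lowest and the DMM pair the highest.

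Both cytoplasmic actins were lower. Actb measured 12922 and 13387 CPM in control, 13087 and 13935 in DMM, 19988 and 21799 in LPS and 3198 and 4370.4 in DMM + LPS, an interaction of -2.50 ± 0.60 (adjusted p = 0.0066, and 0.061 without DMM + LPS replicate A). Actg1 had an interaction of -2.89 ± 0.51 (adjusted p = 0.00033) and kept its call without each library. Actins and tubulins have near-identical copies too, with the same uncertainty in the split of reads. The MS4A family with Tmem176a and Tmem176b, membrane proteins of leukocytes, was also grouped by symbol after the values were seen. Of its 7 tested genes, 5 were lower and none higher, where 5.3% of all genes were lower. Ms4a7 measured 162 and 161 CPM in control, 133 and 257 in DMM, 475 and 529 in LPS and 93.3 and 121 in DMM + LPS (-2.52 ± 0.53, adjusted p = 0.0021). Ms4a7 kept its call without each library and lost it with unstimulated groups merged (adjusted p = 0.36).

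The inflammatory cytokines Il1b and Tnf were still induced by LPS after DMM. Il1b, interleukin-1 beta, measured 3.06 and 3.52 CPM in control, 3.17 and 7.8 in DMM, 6529.8 and 9244 in LPS and 3466 and 6029 in DMM + LPS. LPS induced it in both settings, the 2 stimulated pairs did not overlap, and the interaction was -1.56 ± 0.97 (adjusted p = 0.36), which missed the threshold. Tnf, tumour necrosis factor, measured 6.12 and 4.69 CPM in control, 4.75 and 4.88 in DMM, 367 and 364 in LPS and 102 and 144 in DMM + LPS. DMM lowered it under LPS (-1.58 ± 0.27, adjusted p = 3.7e-05) while the interaction, -1.41 ± 0.71, was not called (adjusted p = 0.24). Il1rn, the interleukin-1 receptor antagonist, had an interaction of 0.42 ± 0.62 (adjusted p = 0.75). Of the pro-inflammatory list, 7 of 19 genes were tested, the others having too few counts, and 1 was called (14.3%, against 6.56% of all genes), Ebi3, a subunit of interleukins 27 and 35, with 3.06 and 1.17 CPM in control, 9.5 and 14.6 in DMM, 45.9 and 47.3 in LPS and 35.4 and 24.1 in DMM + LPS. Each agent alone raised Ebi3, the 2 together gave less than LPS alone in both libraries, and its interaction was -3.07 ± 0.70 (adjusted p = 0.0046). It was not called without control replicate B (adjusted p = 0.051) or DMM replicate B (adjusted p = 0.086).

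Genes with few or no reads at baseline are given by counts. Nos2 had 131 and 147 counts in LPS and 776 and 507 in DMM + LPS, and DMM raised it under LPS (1.61 ± 0.30, adjusted p = 0.00019). Arg1, arginase 1, which competes with Nos2 for arginine, had 0 and 0 counts in control, 2 and 2 in DMM, 275 and 376 in LPS and 2720 and 2942 in DMM + LPS. Ptgs2, cyclooxygenase 2, had 1 count in the 4 unstimulated libraries together, 72 and 73 in LPS and 346 and 249 in DMM + LPS. None of the tested genes of the arginine and eicosanoid lists had a called higher interaction. Under LPS, Nos2, Arg1 and Ptgs2 were each higher in both DMM + LPS libraries than in both LPS libraries, a difference that is not an interaction. Ptges, the prostaglandin E synthase downstream of Ptgs2, went the other way: 2 and 1 counts in control, 3 and 4 in DMM, 1987 and 2017 in LPS and 795 and 629 in DMM + LPS. Its LPS ratio without DMM was 1310-fold (95% counting interval 448 to 6354), and its interaction was called (adjusted p = 0.039), but of the 8 fits that left out 1 library only the one without DMM + LPS replicate B kept the call (adjusted p = 0.067 to 0.15 in the other 7). Il1a, Cxcl10 and Arg2 had at most 1 count in any unstimulated library and at most 17 in a stimulated one, with no call. Il6, Il10, Il12b and Ifnb1 had at most 1 count in any of the 8 libraries and were not tested. Over all genes tested, 664 (9.75%) had a group with 3 or fewer counts.

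Among the other signalling lists, calls were few. Of 15 chemokines tested, 3 were lower and none higher (5.3% and 1.26% of all genes): Ccl6, Ccl9 and Pf4, the last without a call when unstimulated groups were merged. Ccl9 measured 1042 and 951 CPM in control, 632 and 867 in DMM, 1385 and 1934 in LPS and 127 and 231 in DMM + LPS, the double-treated pair lying below the other 6 libraries (-2.81 ± 0.54, adjusted p = 0.00082). Of 19 NF-kB and Toll-like receptor genes, 3 were lower (15.8%). Tlr2, the receptor for bacterial lipoproteins, measured 24.5 and 21.1 CPM in control, 41.2 and 47.8 in DMM, 64 and 65.6 in LPS and 14.1 and 17.6 in DMM + LPS. LPS raised Tlr2 without DMM (1.5 ± 0.30) and lowered it after DMM (-1.52 ± 0.32), an interaction of -3.02 ± 0.44 (adjusted p = 3.1e-05, and 0.061 with unstimulated groups merged). Ikbke, a kinase of the interferon branch, had an interaction of -1.87 ± 0.40 (adjusted p = 0.0025) and Irak1, a kinase of the MyD88 branch, of -1.82 ± 0.54 (adjusted p = 0.033). Ikbke kept its call without each library, while Irak1 lost it without either control, DMM replicate A, LPS replicate A or either DMM + LPS library (adjusted p = 0.057 to 0.17).

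None of the 35 interferon-response genes tested was called in the interaction, although DMM lowered 17 of them under LPS, where it lowered 13.2% of all genes. Of 19 feedback inhibitors, Atf3, a stress-induced transcription factor, was higher (5.26%, against 1.26% of all genes) and none was lower. Atf3 measured 62.2 and 89.1 CPM in control, 39.6 and 59.5 in DMM, 64 and 66.7 in LPS and 128 and 162 in DMM + LPS, so that only the double treatment exceeded the control pair (1.72 ± 0.45, adjusted p = 0.015). Junb, an AP-1 subunit, was the other called gene of the 8 immediate early and AP-1 genes (25% higher, against 1.26% of all genes). It measured 24.5 and 19.9 CPM in control, 14.3 and 5.85 in DMM, 111 and 109.7 in LPS and 134 and 172 in DMM + LPS (1.73 ± 0.53, adjusted p = 0.041). Both calls were fragile. Atf3 lost its call without control replicate B, DMM replicate A, either LPS library or DMM + LPS replicate B (adjusted p = 0.058 to 0.11), and Junb lost it without every library except DMM replicate A (adjusted p = 0.058 to 0.33).

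Metabolic genes near the target of DMM showed few called interactions. None of the 23 TCA cycle genes was called, at a median of -0.09 (lowest -0.82, highest 1.15). The subunits of succinate dehydrogenase had interactions of -0.71 ± 0.38 for Sdha, -0.69 ± 0.39 for Sdhb, 0.12 ± 0.52 for Sdhc and 0.05 ± 0.44 for Sdhd, with adjusted p from 0.28 to 0.97. DMM lowered Sdha (-0.88 ± 0.27) and Sdhb (-1.0 ± 0.27) under LPS, and with 2 libraries a group the difference from the DMM effect without LPS was called for neither. Of 10 genes that handle succinate and itaconate, Slc13a3 and Irg1 were lower (20%, against 5.3% of all genes) and none was higher. Irg1, the itaconate-producing enzyme, measured 12.2 and 11.7 CPM in control, 33.3 and 11.7 in DMM, 11462 and 12885 in LPS and 3512 and 4481 in DMM + LPS. LPS induced it strongly in both settings (9.97 ± 0.62 without DMM, 7.55 ± 0.56 after DMM), with both double-treated libraries below both LPS libraries, and the interaction was -2.42 ± 0.72 (adjusted p = 0.034). Irg1 lost its call without either control, DMM replicate A, either LPS library or DMM + LPS replicate A (adjusted p = 0.069 to 0.33).

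Of 53 nuclear genes of oxidative phosphorylation, 5 were lower (9.43%, against 5.3% of all genes) and none higher, at a median of -0.90. With total counts in place of TMM factors 1 was lower, at a median of -0.40, and with all 21 libraries 0 were. DMM lowered 27 of them under LPS, where it lowered 13.2% of all genes, and none without LPS. Cox4i1, a subunit of cytochrome c oxidase, measured 828 and 603 CPM in control, 459 and 685 in DMM, 648 and 691 in LPS and 129.8 and 173 in DMM + LPS (-1.83 ± 0.52, adjusted p = 0.026). The first 3 groups overlapped and the DMM + LPS pair was below them. Cox5b (-1.85 ± 0.43), Atp5o (-1.88 ± 0.45) and Atp5l (-2.26 ± 0.62), of complex IV and of ATP synthase, had the same sign, as did Ndufb7 of complex I (-1.60 ± 0.49), which was called only without DMM + LPS replicate B (adjusted p = 0.066 to 0.35 in the other 7 fits that left out 1 library). Cox4i1, Cox5b, Atp5o and Atp5l lost the call without DMM + LPS replicate A (adjusted p = 0.055 for Atp5o to 0.16 for Cox4i1), Cox4i1 and Atp5l also without control replicate B, DMM replicate B or LPS replicate B, Cox4i1 without LPS replicate A, Atp5l without DMM replicate A and Cox5b without DMM replicate B. Of 11 mitochondrially encoded genes, mt-Nd1 (-1.65 ± 0.51) and mt-Nd5 (-1.73 ± 0.46) were lower (18.2%, against 5.3% of all genes) and none higher, at a median of -1.08, each with at least 5 of 8 fits that left out 1 library without a call (adjusted p = 0.051 to 0.2 for mt-Nd1 and 0.052 to 0.097 for mt-Nd5). None of the 11 was called with total counts or with all 21 libraries.

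None of 19 glycolytic genes was called in the interaction, at a median of -0.56, with a median LPS effect of 2.88 without DMM and 2.08 after it. Slc2a1, the glucose transporter, had an interaction of 0.14 ± 0.58 (adjusted p = 0.93) and Hif1a, the oxygen-regulated subunit of HIF-1, of -0.46 ± 0.50 (adjusted p = 0.64). Of 15 HIF-1 targets outside glycolysis, the histone demethylase Kdm3a was higher (6.67%, against 1.26% of all genes) and none was lower. Kdm3a measured 7.14 and 11.7 CPM in control, 12.7 and 4.88 in DMM, 2.13 and 3.23 in LPS and 18 and 15.8 in DMM + LPS (2.83 ± 0.86, adjusted p = 0.039). The call of Kdm3a held only without control replicate A or DMM replicate A (adjusted p = 0.054 to 0.18 in the other 6 fits). Of 11 tested genes of arginine and nitric oxide metabolism, Slc7a2 was lower (9.09%, against 5.3% of all genes) and none was higher. Of 17 eicosanoid genes, Ptges and Pla2g7, a phospholipase that degrades platelet-activating factor, were lower (11.8%, against 5.3% of all genes) and none was higher. The interaction of Pla2g7 was -2.03 ± 0.58 (adjusted p = 0.026). Pla2g7 was called only without DMM + LPS replicate B (adjusted p = 0.052 to 0.14 in the other 7 fits).

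Of 23 genes of cholesterol synthesis and uptake, 3 had a lower interaction (13%, against 5.3% of all genes) and none a higher one. Insig1, which retains the sterol sensor SCAP in the endoplasmic reticulum, measured 164 and 192 CPM in control, 241 and 266 in DMM, 36.3 and 22.6 in LPS and 4.5 and 2.79 in DMM + LPS. LPS lowered it in both settings, by -2.59 ± 0.32 without DMM and -6.01 ± 0.40 after it (-3.42 ± 0.54, adjusted p = 6.2e-05). Srebf2, the transcription factor that drives sterol synthesis, was also lower (-1.51 ± 0.45, adjusted p = 0.036). Insig1 was called in each of the 8 fits that left out 1 library, and Srebf2 only in the one without control replicate B (adjusted p = 0.052 to 0.15 in the other 7).

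Of 22 genes of lipid handling and efflux, 3 were lower (13.6%, against 5.3% of all genes) and none higher. Cd36, a scavenger receptor for oxidised lipoproteins, measured 147 and 136 CPM in control, 190.1 and 222 in DMM, 756 and 1048 in LPS and 217 and 231 in DMM + LPS. The rise with LPS seen in control cells (2.67 ± 0.36) was not called after DMM (0.12 ± 0.34, adjusted p = 0.83), and the interaction was -2.55 ± 0.49 (adjusted p = 0.00079). The cholesterol exporter Abca1 (-1.64 ± 0.39, adjusted p = 0.0066) and the desaturase Scd2 (-1.90 ± 0.45, adjusted p = 0.0066) were the others. Both lost the call without DMM + LPS replicate A (adjusted p = 0.058 for Scd2 and 0.05002 for Abca1), and Abca1 also without control replicate A (adjusted p = 0.051). Of 27 NRF2 antioxidant genes, 5 were lower and 1 higher (18.5% and 3.7%, against 5.3% and 1.26% of all genes). Blvrb, biliverdin reductase B, measured 96.9 and 65.7 CPM in control, 169 and 166 in DMM, 727 and 631 in LPS and 182 and 249 in DMM + LPS, a rise with LPS that was not called after DMM (-2.70 ± 0.48, adjusted p = 0.00033, and 0.2 with unstimulated groups merged). Gstm1, a glutathione transferase, went the opposite way, with 93.9 and 68 CPM in control, 36.4 and 59.5 in DMM, 19.2 and 22.6 in LPS and 57.3 and 58.5 in DMM + LPS (2.19 ± 0.42, adjusted p = 0.00088). Thioredoxin Txn1 (-2.24 ± 0.59) and glucose-6-phosphate dehydrogenase G6pdx (-1.52 ± 0.40) lost their calls without DMM + LPS replicate A and others (highest adjusted p = 0.13 and 0.079), while Blvrb and Gstm1 kept theirs. The other lower genes were transketolase, Tkt (-1.65 ± 0.45), and superoxide dismutase 1, Sod1 (-2.48 ± 0.66), which were called in 1 and 3 of the 8 fits that left out 1 library (highest adjusted p = 0.093 and 0.13).

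Of 22 genes of the unfolded protein response, 7 were lower (31.8%, against 5.3% of all genes) and none higher, at a median of -0.74. With total counts in place of TMM factors 3 were lower, at a median of -0.23, and with all 21 libraries 0 were. The list's median LPS effect was 0.73 without DMM and -0.18 after it. Calr, calreticulin, measured 195 and 206 CPM in control, 149 and 212 in DMM, 518 and 541 in LPS and 106 and 129 in DMM + LPS (-2.03 ± 0.47, adjusted p = 0.0051). Herpud1, of endoplasmic-reticulum-associated degradation, had an interaction of -2.09 ± 0.48 (adjusted p = 0.0049), and Hsp90b1 (-1.73 ± 0.46) and Pdia6 (-1.5 ± 0.39), further folding factors, had the same sign. Herpud1 kept its call without each library, and Calr lost it without DMM + LPS replicate A (adjusted p = 0.054). Hsp90b1 lost its call without control replicate B, DMM replicate B, LPS replicate B or DMM + LPS replicate A (adjusted p = 0.062 to 0.1), and Pdia6 without control replicate B, DMM replicate B, LPS replicate A or DMM + LPS replicate B (adjusted p = 0.053 to 0.15). The other 3 lower genes were the chaperone Hspa5 (-1.76 ± 0.48), Sdf2l1 (-1.54 ± 0.42) and the translocon subunit Sec61b (-1.83 ± 0.54), called in 2, 3 and 2 of the 8 such fits (highest adjusted p = 0.1, 0.096 and 0.25). Of 18 ATF4 targets, the mitochondrial folate enzyme Mthfd2 was lower (-1.55 ± 0.44, with a call in none of the 8 fits, adjusted p = 0.052 to 0.096) and none was higher, at a median of -0.29. That share, 5.56%, is near the 5.3% of all genes.

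Of 16 heat-shock genes tested, 2 were lower and 2 higher (12.5% each, against 5.3% and 1.26% of all genes). Hspa8, the constitutive Hsp70, measured 579 and 477 CPM in control, 440.3 and 515 in DMM, 606 and 683 in LPS and 95 and 145 in DMM + LPS (-2.29 ± 0.50, adjusted p = 0.0032, and 0.054 without DMM + LPS replicate A), and Hsp90ab1 was lower as well (-1.67 ± 0.48). Zfand2a, an arsenite-inducible proteasome regulator, was higher (2.23 ± 0.55, adjusted p = 0.009), as was Hsph1, an Hsp110 chaperone with 2 counts over both DMM libraries and 70 over both DMM + LPS libraries. These counts of Hsph1 give the LPS effect after DMM and not the one without it. The call of Zfand2a was lost without LPS replicate B (adjusted p = 0.051) or DMM + LPS replicate A (adjusted p = 0.06), and that of Hsp90ab1 in all 8 such fits (adjusted p = 0.052 to 0.13). Hsph1 lost its call without control replicate B, DMM replicate A, LPS replicate A or DMM + LPS replicate A. With unstimulated groups merged, neither Zfand2a nor Hsph1 was called.

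Of 8 genes of osmolyte transport, 2 were higher (25%, against 1.26% of all genes) and none lower, at a median of 0.95. Slc6a12, the betaine transporter, measured 305 and 228 CPM in control, 80.8 and 75.1 in DMM, 463 and 506 in LPS and 715 and 864 in DMM + LPS. DMM lowered it without LPS (-1.78 ± 0.33, adjusted p = 0.0018), and under LPS the DMM + LPS pair was above the LPS pair without a call (0.70 ± 0.30, adjusted p = 0.1), an interaction of 2.48 ± 0.45 (adjusted p = 0.0004). Slc5a3, the myo-inositol transporter, measured 684 and 567 CPM in control, 173 and 175 in DMM, 7.46 and 5.38 in LPS and 12.4 and 12.1 in DMM + LPS (2.76 ± 0.59, adjusted p = 0.0024). Slc5a3 overlaps the gene Mrps6, so some of its counts may belong to Mrps6, which was not tested. Both were called without each library in turn. With unstimulated groups merged over the sets neither was called (2.51, adjusted p = 0.27 for Slc6a12 and 3.17, adjusted p = 0.35 for Slc5a3).

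Genes that define macrophages had 8 lower interactions and 1 higher among 25 tested (32% and 4%, against 5.3% and 1.26% of all genes), at a median of -1.05. Itgam, the CD11b integrin of complement receptor 3, measured 159 and 170.1 CPM in control, 304 and 313 in DMM, 3966 and 4164 in LPS and 849 and 1128 in DMM + LPS. LPS raised it in both settings (4.63 ± 0.43 without DMM, 1.68 ± 0.38 after it), and the interaction was -2.95 ± 0.53 (adjusted p = 0.0004). The 3 chains of complement C1q, which opsonises immune complexes and apoptotic cells, were all lower, a grouping made after the values were seen. C1qa measured 709 and 975 CPM in control, 1087 and 1502 in DMM, 919 and 922 in LPS and 122 and 136 in DMM + LPS (-3.46 ± 0.57, adjusted p = 0.0001) and its DMM + LPS pair was below the other 6 libraries. C1qc (-3.17 ± 0.64) and C1qb (-2.0 ± 0.57) followed. The other 4 lower genes were Fcgr2b, Aif1 (-3.24 ± 0.72), Maf (-1.89 ± 0.46) and Emr1, which encodes F4/80 (-1.97 ± 0.61).

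Trem2, a lipid-sensing receptor, was the gene of this list with a higher interaction. It measured 807 and 734 CPM in control, 505 and 597 in DMM, 8.53 and 11.8 in LPS and 28.7 and 40.9 in DMM + LPS, a fall with LPS that was smaller after DMM (2.22 ± 0.52, adjusted p = 0.0059). Itgam, C1qa, C1qc and Fcgr2b kept their calls without each library. Trem2 lost it without LPS replicate A (adjusted p = 0.07), Aif1 without DMM replicate B (adjusted p = 0.1), and Maf without control replicate A, DMM replicate B or LPS replicate B (adjusted p = 0.064 to 0.092). C1qb was called only without DMM replicate A or DMM + LPS replicate B, and Emr1 only without DMM + LPS replicate B (highest adjusted p = 0.16 and 0.22). With unstimulated groups merged, Aif1 (adjusted p = 0.18), Maf (adjusted p = 0.2) and Emr1 (adjusted p = 0.11) were not called. Clec4e, the mycobacterial glycolipid receptor Mincle, was chosen after its values were seen: 26.5 and 16.4 CPM in control, 41.2 and 60.5 in DMM, 8436 and 11434 in LPS and 1592 and 2355 in DMM + LPS, an interaction of -3.58 ± 0.65 (adjusted p = 0.00041) that held without each library.

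Of 37 lysosomal genes, 2 were higher and 1 lower (5.41% and 2.7%, against 1.26% and 5.3% of all genes), at a median of 0.06. Ctsc, the cathepsin that activates granule serine proteases, measured 271 and 305 CPM in control, 289.9 and 384 in DMM, 3698 and 3700.5 in LPS and 554 and 727 in DMM + LPS (-2.76 ± 0.53, adjusted p = 0.00081). Gla, alpha-galactosidase A, was higher (2.07 ± 0.51, adjusted p = 0.0089, and 0.082 without LPS replicate A), as was Atp6v0d2, a proton-pump subunit with 50 counts in control, 6 in DMM, 2 in LPS and 10 in DMM + LPS. Of 10 MHC class II and co-stimulation genes none was called. Of 44 cell-cycle genes, 4 were lower (9.09%, against 5.3% of all genes) and none higher, 2 of them the tubulins above and 1 Rrm2, of ribonucleotide reductase, with 4 counts in LPS and 0 in DMM + LPS. These counts of Rrm2 give the DMM effect under LPS and not the one without it. Mcm5, of the replicative helicase, fell from 84 and 56.6 CPM in DMM to 2.25 and 2.79 in DMM + LPS and from 34.7 and 30.5 in control to 8.53 and 6.45 in LPS (-2.64 ± 0.69, adjusted p = 0.015). Mcm5 lost its call without LPS replicate A or DMM + LPS replicate A (adjusted p = 0.12 and 0.12). Of 22 apoptosis genes, the pro-apoptotic Bid was higher (1.94 ± 0.53) and the caspase-8 inhibitor Cflar lower (-1.46 ± 0.42), each called in 2 of the 8 fits that left out 1 library (highest adjusted p = 0.14 and 0.16). Each is 4.55% of that list, against 1.26% of all genes higher and 5.3% lower.

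**Figure D4:**
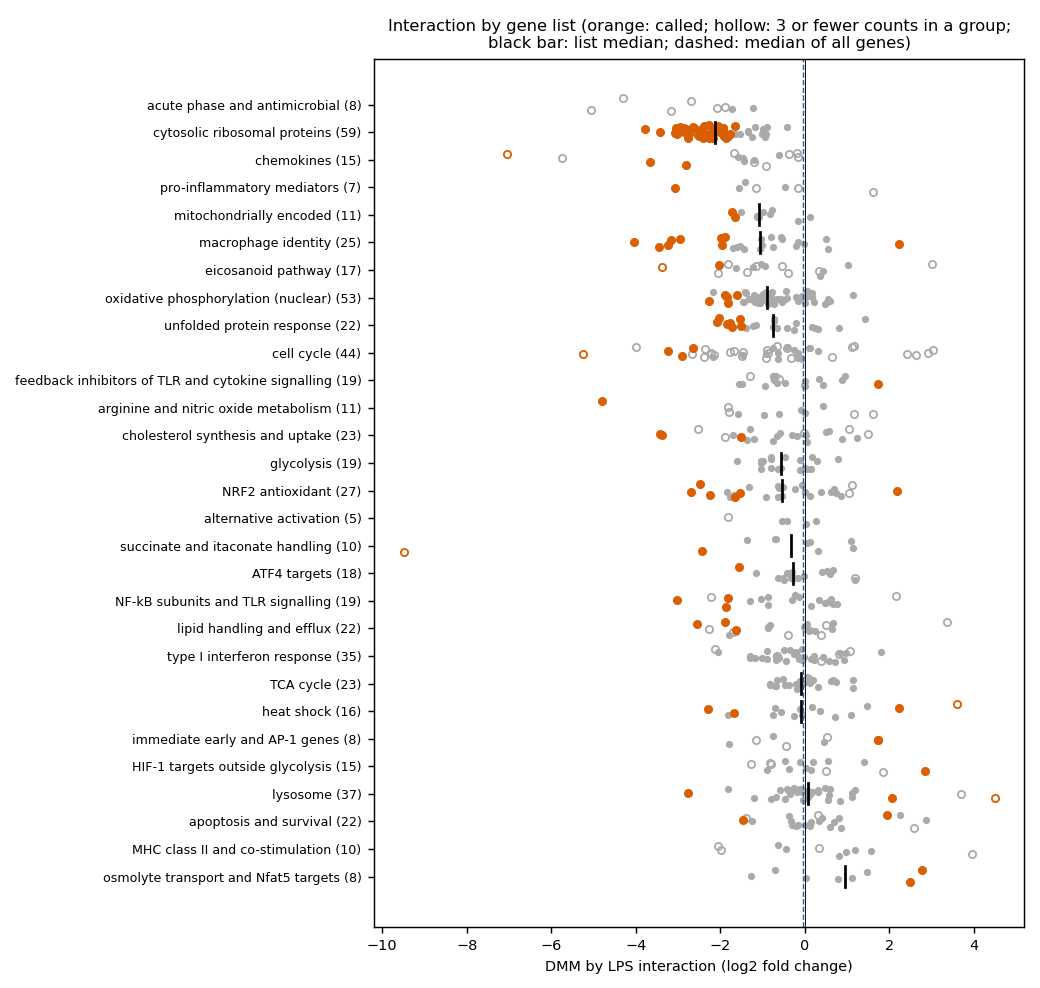
Interaction log2 fold change (x axis) of each tested gene in 29 gene lists (y axis, number of tested genes in parentheses), ordered by median. Orange points are called genes, hollow points have 3 or fewer counts in a group so that their fitted value is uncertain, and black bars mark medians of lists in which at most 10% of genes are hollow; the 44 called ribosomal protein genes lie left of 0 and the 2 called osmolyte genes right of it.

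Markers of other cells the cultures could hold moved with treatment as well. The summed level of 15 neutrophil and precursor markers, of which 9 were detected and Ly6g, Ltf, Ngp, Elane, Ctsg and Retnlg were at 0, was 6.12 to 16.4 CPM in control, 18.5 to 23.8 in DMM, 282 to 308 in LPS and 320 to 440 in DMM + LPS. These markers did not move together. S100a8 measured 41.6 and 66.7 CPM in LPS and 199.5 and 320.3 in DMM + LPS, where it made up most of the sum, and Mmp8 was also higher there. Mmp9 went from 154.6 and 138.8 CPM in LPS to 18.6 and 26 in DMM + LPS, and Csf3r was lower there too. Of 9 monocyte markers 7 were detected, Plac8 being among those at 0, and their sum was 2.04 to 7.04 CPM in control, 50.7 to 51.7 in DMM, 1980 to 2106 in LPS and 537 to 705 in DMM + LPS. Most of the monocyte sum in the stimulated libraries came from Hp, haptoglobin, an acute-phase gene, at 2054 and 1908 CPM in LPS and 447 and 633 in DMM + LPS. The monocyte chemokine receptor Ccr2 was instead highest in DMM, at 31.7 and 31.2 CPM, against 1.07 and 0 in LPS and 2.81 and 1.86 in DMM + LPS. Macrophages themselves express several of these genes after LPS. The sum of 9 B-cell markers, 6 of them at 0, was 70.4 to 74.5 CPM in control, 116 to 140 in DMM and at most 2.13 in any stimulated library. Ighm, the heavy chain of IgM, carried nearly all of it, at 73.5 and 70.4 CPM in control and 116 and 138.5 in DMM, while the other detected genes, Cd79b and Ms4a1, had 1 count each. The part of these markers in the interaction was not tested. T and NK, mast cell and erythroid markers summed to at most 17.98 CPM in any of the 8 libraries, and dendritic cell markers to at most 19.01. Il7r, given above, was the one T and NK gene tested. Osteoclast markers, Mmp9 among them, summed to 40.8 to 57.5 CPM in control, 25.3 to 25.4 in DMM, 163.5 to 178.1 in LPS and 65.8 to 77.1 in DMM + LPS. Markers of fibroblasts and stroma summed to 6.12 to 7.04 CPM in control, 3.17 to 12.7 in DMM, 29 to 46.9 in LPS and 38.1 to 44.4 in DMM + LPS. Of 4 monocyte markers tested, F13a1 was called lower (25%, against 5.3% of all genes) and none higher. Of 5 osteoclast markers tested, Atp6v0d2 was called higher (20%, against 1.26% of all genes) and none lower. Only 1 of these 5 and none of the 4 monocyte markers had more than 3 counts in each group.

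A set of LPS-responsive genes was also taken from libraries outside the comparison, as genes called for LPS after succinate in the 4 h set (1405 genes, 20.6%; 12.2% raised and 8.47% lowered). Of the 828 genes raised there, 147 had a lower interaction and 7 a higher one (17.8% and 0.845%, against 5.3% and 1.26% of all genes). DMM under LPS lowered 382 of the 828 and raised 37, where it lowered 13.2% and raised 4.87% of all genes. Of the 577 genes lowered there, 34 had a higher interaction and 25 a lower one (5.89% and 4.33%). The LPS effect after succinate rested on 1 stimulated library, whose spread was taken from the other groups.

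The same interaction was computed from the 48 h set, whose libraries are other ones than those of the 4 h set. It rested on 1 control and 1 LPS library beside 2 of DMM and 2 of DMM + LPS, so that the spread of the lone libraries was taken from the other groups and its p-values assume that they vary alike. It called 22 genes (0.323%), 6 higher (0.0881%) and 16 lower (0.235%). Of the 447 genes called at 4 h, 15 were among them, all with the same sign. The sign at 48 h was the same for 330 of the 361 lower genes (91.4%) and for 73 of the 86 higher ones (84.9%), against 62.5% of all genes. The medians at 48 h were -0.83 and 1.04 for these genes, smaller than the -2.09 and 2.25 by which they had been chosen at 4 h. With that limit, genes called at both times with a lower interaction included Ch25h (-5.57 at 48 h, adjusted p = 3.1e-07), Tmem176b (-3.33, adjusted p = 4.6e-05), Slc7a2 (adjusted p = 0.027, with 0 counts in the control library of that set), Tlr2 (-2.31, adjusted p = 0.016) and the adhesion receptor Icam1 (-2.04, adjusted p = 0.048), and with a higher one Syngr1 (3.39, adjusted p = 0.006) and Trem2 (3.72, adjusted p = 0.016).

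The ribosomal protein list had a median of -0.36 at 48 h, and ribosomal protein genes took up 0.773 to 1.19% of counts in the DMM + LPS libraries of that set and 1.56% in its LPS replicate 2. The interaction at 4 h minus that at 48 h called 0 of 6812 genes with edgeR, with 472 at an unadjusted p under 0.05, and DESeq2 called 0 too. A gene called at 4 h only is therefore not shown to differ from 48 h.

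**Figure D5:**
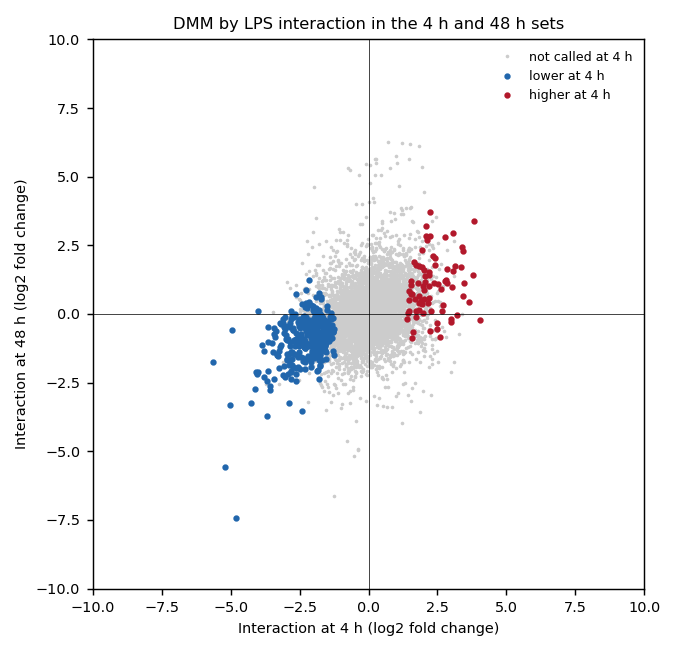
DMM by LPS interaction at 4 h (x axis) and at 48 h (y axis), log2 fold change, 1 point per gene with more than 3 counts in each 4 h group; blue and red points are genes called lower and higher at 4 h. Of all genes called at 4 h, 330 of 361 lower ones lie below 0 at 48 h and 73 of 86 higher ones above 0, a count that includes genes with 3 or fewer counts in a group, which are not drawn.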

How the data were processed

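RNA-sequencing counts per gene for 21 libraries in 12 groups were analysed as the authors deposited them, in 1 table of 34573 genes; all its sample columns were used. Per the submitters' processing notes TopHat2, Bowtie, HTSeq and edgeR were used; their versions, the genome build and the strand setting were not given in the sources used here. Which unstimulated columns belong to the 4 h set was read from the column names, and an alternative merged unstimulated groups over both sets.

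The analysis used edgeR 4.0.16 in R 4.3.3 with TMM factors, a group-means design over 20 libraries (8 residual degrees of freedom, common biological coefficient of variation 0.199) and the quasi-likelihood test with Benjamini-Hochberg adjustment. Every adjusted p in the text comes from edgeR unless DESeq2 1.42.0 is named. A gene was tested if at least 2 libraries reached the CPM that 10 counts give in a library of median size and its total was at least 15 counts. Standard errors are the fold change divided by the root of F. Genes with 3 or fewer counts in a group are given as counts, with 3 counts per group as the floor and 95% counting intervals. The labels name no molecular identifiers, so intervals and floors cover counting error only.

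Named genes were the 12 highest and 12 lowest called interactions among genes with more than 3 counts in each group and a group mean of at least 10 CPM (predicted genes left out), the 6 called low-count genes with the smallest p, a panel of LPS and DMM readouts, and called genes of each list. The members, lists and rules were chosen with earlier results of these data known. The fit was also run on simulated data in which all genes had the same spread and the changed genes were well expressed in control and LPS. That run does not test the fit for genes with few reads at baseline or for groups that vary more. Promoters are RefSeq entries of build GRCm38.p6, matched by symbol. Replicate letters were checked for pairing: correlations of A minus B between groups ran from -0.04 to 0.15 over 4549 genes, which does not establish pairing. The values of some genes are not reported here.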

Additional observations from a re-analysis of the deposited data

How the results depend on the processing

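Counts of calls at 4 h depended on the libraries and the model; the cause was not tested. With all 21 libraries the interaction called 78 genes (13 higher, 65 lower), DMM under LPS 464, DMM alone 0 and the 48 h interaction 2. With the 8 libraries alone it called 680 (143 higher) and DMM alone 124, and with the 11 libraries of the 4 h set 137 higher. DESeq2 gave 36 higher interaction calls, 1217 for LPS, 1457 for LPS after DMM and 728 for DMM under LPS. With the replicate letter as a block, although pairing was not established, the interaction called 675 (145 higher), DMM alone 136, the 48 h interaction 54 and the difference between times 5. Total counts gave 208 higher. Merged unstimulated groups gave 38 for DMM alone. Without the filter on low counts the 48 h interaction called 43 genes and the difference between times 2. Leaving out 1 library gave 175 to 381 interaction calls (38 to 78 higher, 137 to 303 lower), 1369 to 1903 for LPS, 1483 to 2169 for LPS after DMM, 5 to 73 for DMM alone and 491 to 1265 for DMM under LPS.

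Values were recomputed for 99 of the called genes named, without Hsph1, Rrm2 and Atp6v0d2. Of these 1873 values, 1492 kept sign and call, 381 kept the sign and lost the call, and 0 changed sign. Of the 99 genes, 44 were called in all 8 fits that left out 1 library. Uncalled values near 0 changed sign: Hif1a to 0.040 with total counts; Slc2a1 to -0.22 with merged groups and, leaving out 1 library, to as low as -0.0738 (highest 0.29); Sdhd to -0.0118 with merged groups, -0.0227 with the length trend removed and, leaving out 1 library, to as low as -0.49 (highest 0.46). With libraries of 662186 to 1546867 counts, genes with few reads at baseline have imprecise interactions: of the 447 called genes, 23 had a group with 3 or fewer counts.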
